A study of Mus musculus with 12 samples.

Results

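The comparison set 3 libraries of mouse gastric cancer cells labelled Rasa1-KO against 3 libraries labelled Nf2-KO, 6 of the 12 libraries of the series, and covered every gene of the deposited tables. The 6 libraries were chosen by the names of their deposited tables, with the low Nf2 mRNA of both groups already known, and 17550 of 18926 genes had enough counts to be tested. The labels and the tables do not give the first group the same name. The sample labels call these 3 libraries Rasa1-KO, whereas the names of their tables and of the count columns call them double knockouts. They are called the libraries labelled Rasa1-KO here, and a gene is called higher or lower when it was so in them relative to Nf2-KO with an adjusted p under 0.05 in the quasi-likelihood test of edgeR.

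All cells were S1, a line from a gastric cancer of the ChetPS mouse, which carries Cdh1 F/+, Trp53 F/F and Smad4 F/F alleles, so both groups share those engineered genes. Knockouts were made with Cas9 and lentiviral guide RNAs, and the methods describe antibiotic selection of the infected cells and no picking of single clones. The labels give the cells as a monolayer, whereas the study describes tumorspheres, the clusters that cells form in low-attachment plates in medium with epidermal growth factor. Libraries were made from total RNA after removal of ribosomal RNA with a stranded kit. The study describes the RNA profiles of a group as technical replications, so standard errors and p-values measure the spread between such libraries and not that between cultures.

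Rasa1 encodes a GTPase-activating protein that switches Ras off, and its loss is known to prolong Ras and ERK signaling downstream of growth factor receptors. Nf2 encodes Merlin, a membrane-associated protein that activates the Hippo kinases Lats1 and Lats2, which keep the coactivators YAP and TAZ out of the nucleus. YAP and TAZ bind TEAD factors and switch on genes of growth, cytoskeleton and extracellular matrix.

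Total counts were between 81566766 and 87751112 in the 6 libraries, so 1 CPM, the unit of counts scaled to a common library total, stood for 77.9 to 87.7 counts. The first principal component of log2 CPM held 52.4% of the variance and separated both groups. Distances between libraries of different groups were 69.2 to 76.1 log2 units, against 46.7 to 51.7 within a group. No library stood apart from its group. 7S RNAs, abundant noncoding RNAs that survive removal of ribosomal RNA, took 11.5% to 13% of counts in the libraries labelled Rasa1-KO and 8.17% to 10.4% in Nf2-KO.

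Rasa1 (chr13:85214699-85289486, mm10) was at 34.5, 30.4 and 30.8 CPM in the libraries labelled Rasa1-KO, against 97.2, 101 and 97.2 CPM in Nf2-KO. The groups did not overlap, and Rasa1 was 3.10-fold lower, a log2 fold change of -1.63 ± 0.06 (SE, n = 3 each) with an adjusted p of 2.45e-07. Nf2 (chr11:4757639-4849544) was at 11.6, 11.9 and 12.1 CPM in the libraries labelled Rasa1-KO, against 14.3, 13.2 and 13.2 CPM in Nf2-KO. Its log2 fold change of -0.20 ± 0.08 did not pass the test (adjusted p = 0.0825), although scaling by library totals alone gave an adjusted p of 0.0314. Control libraries held 58.2 ± 2.82 CPM (SD, n = 3) of Nf2 and those labelled double-KO 58.9 ± 3.30 CPM. Low Nf2 mRNA in the libraries labelled Rasa1-KO goes against a label that names Rasa1 alone, and Nf2 mRNA near the control level in those labelled double-KO goes against theirs, whereas both levels go with the names of the tables. The group names below are only those of the labels, and every direction below is drawn for the libraries so labelled. By the names of the tables, the comparison is of double knockouts with Nf2 knockouts, and the libraries labelled double-KO are Rasa1 knockouts. Counts over a whole gene do not show whether a guide disrupted the protein.

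**Figure D1:**
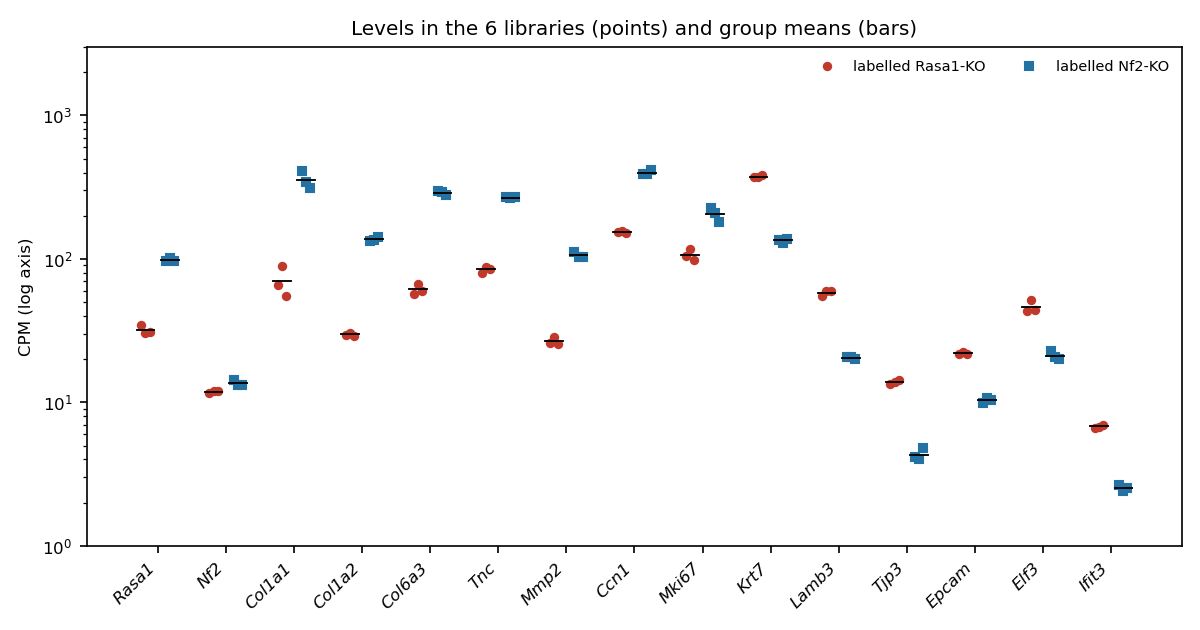
Levels of 15 genes in CPM on a log axis, with 1 point per library and a bar at the mean of each group of 3 libraries. Rasa1 was 3.10-fold lower in the libraries labelled Rasa1-KO while Nf2 lay between 11.6 and 14.3 CPM in all 6, and the remaining genes stand for the groups described in the text.

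In all, 2099 genes were higher and 2428 lower, 12% and 13.8% of the genes tested. The counts in each gene list below are to be read against these shares. At least 2-fold changes were called for 369 higher and 281 lower genes, 2.1% and 1.6%. By the rule in the study's methods, which asks for 3-fold changes and an unadjusted p under 0.05, 146 genes were higher and 88 lower, 0.832% and 0.501%. Most called differences were under 2-fold, and the median over all genes was 0.00 on the log2 scale. Scaling by library totals alone moved the split to 1578 higher and 3178 lower genes.

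The 3 levels of 1 group lay wholly above those of the other for 7138 genes (40.7% of all tested) and for 646 of the 650 called with at least 2-fold changes, and the same holds for each gene given below as higher or lower.

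These counts depended on the libraries that set the error and, less so, on transcript length. When the control libraries and those labelled double-KO were added to the fit, 346 genes were higher (1.92% of those tested) and 315 lower (1.74%), all among the 4527 genes above. Control replicate 1 stood apart from the other control libraries, and without it this fit of 11 libraries, chosen after seeing the data, gave 996 higher and 1224 lower genes, of which 2216 were among those above. Counts of the 12-library and the 11-library fit of edgeR, or adjusted p of single genes, are given beside the gene groups. Fold changes also fell with transcript length, from a median log2 fold change of 0.09 in the octile of protein-coding genes with the shortest transcripts (median 1085 bases) to -0.13 in the octile with the longest (median 8566 bases). The slope differed between libraries of 1 group. In the longest octile the log2 CPM of Nf2-KO replicate 1 lay 0.19 above the mean of the 6 libraries, that of Nf2-KO replicate 2 at 0.07 and that of Nf2-KO replicate 3 at -0.05, and the replicates labelled Rasa1-KO lay at -0.07, 0.03 and -0.15. With the trend removed from each library, an alternative chosen after seeing the data, 2427 genes were higher and 2475 lower, and 3961 of the 4527 calls remained.

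**Figure D2:**
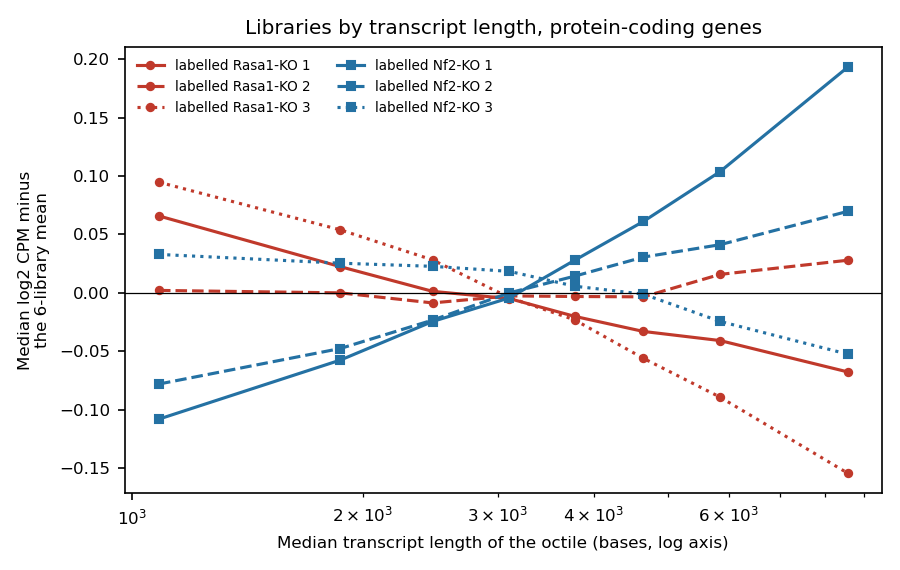
Median log2 CPM of each library minus the mean of the 6 libraries (vertical axis) for 8 equal groups of protein-coding genes by transcript length (horizontal axis, bases, log scale). Nf2-KO replicate 1 rises to 0.19 and the replicate 3 labelled Rasa1-KO falls to -0.15 in the longest group, while the other 4 libraries lie between.

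**Figure D3:**
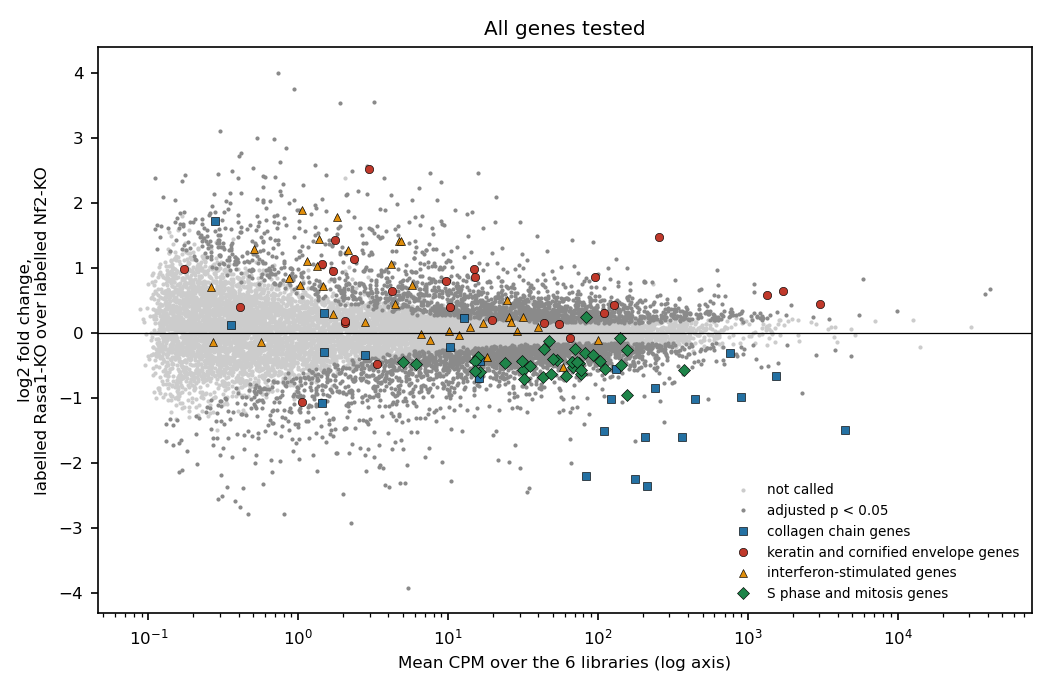
Log2 fold change of every gene tested against its mean CPM over the 6 libraries (log axis), with 4 gene lists marked. Collagen chains lie mostly below 0, with a median of -0.77, keratins above it with 0.58, and genes of S phase and mitosis form a narrow band at -0.46.

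The genes that rose most were expressed at low levels in Nf2-KO. Ms4a8a, which encodes a membrane-spanning protein, was at 1.39, 1.53 and 1.245 CPM in the libraries labelled Rasa1-KO, against 0.0706, 0.0570 and 0.128 CPM in Nf2-KO (log2 fold change 4.0 ± 0.30, adjusted p = 1.47e-05). Cdh11, a cadherin of mesenchymal cells, was at 6.47, 5.71 and 5.56 against 0.494, 0.502 and 0.499 CPM (log2 fold change 3.56, adjusted p = 2.75e-07). Hdgfl3, a member of the hepatoma-derived growth factor family, was at 3.39, 3.54 and 3.62 against 0.365, 0.262 and 0.279 CPM (3.53 on the log2 scale). The groups did not overlap for these 3 genes, which the rule for naming them required. B4galnt3, a glycosyltransferase, Scarf2, Fam217b, Otop3, a proton channel, Tff3, a trefoil peptide of mucus, Gpa33, an antigen of gut epithelium, Srgap1, a regulator of small GTPases, Myh14, a nonmuscle myosin heavy chain, and Scin, an actin-severing protein, rose by 2.53 to 3.75 on the log2 scale. In the 12-library fit 8 of the 12 genes kept their call, and in the 11-library fit 11.

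The gene that fell most was Tro, which encodes the adhesion protein trophinin. It was at 0.741, 0.779 and 0.475 CPM in the libraries labelled Rasa1-KO, against 10.4, 9.25 and 10.5 CPM in Nf2-KO (log2 fold change -3.92 ± 0.16, adjusted p = 4.32e-07). Gfra2, a coreceptor of neurturin, was at 0.515, 0.645 and 0.398 against 3.98, 4.36 and 3.52 CPM (log2 fold change -2.93). Serpinf1, the secreted antiangiogenic protein PEDF, was at 10.7, 10.6 and 10.2 against 56.3, 54.9 and 59.8 CPM (log2 fold change -2.45 ± 0.07) and its groups lay far apart. Dpt, the matrix protein dermatopontin, was at 12.7, 9.89 and 10.9 against 52.0, 57.8 and 64.1 CPM (-2.38 on the log2 scale). Slc6a15, an amino acid transporter, Adamts16, a matrix protease, Pcdhga10, a protocadherin, Plac9b, Gm9780, Gm14139 and 1500009L16Rik fell by 2.38 to 2.79 on the log2 scale. Pcdhga10 shares exons with its neighbours and Plac9b has a near-identical copy, so their reads may be split between genes. The 12-library fit kept 8 of these 11 and the 11-library fit 11.

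By the amount of mRNA gained or lost, Krt8, Krt18, Krt19, Tpt1, Ftl1 and Bsg led the higher genes and Col3a1, Fn1, Col6a1, Ahnak, P4hb and Scd2 the lower ones. Krt8 and Krt18, the keratin pair of simple epithelia, were 1.36-fold and 1.55-fold higher, and Krt19, which pairs with Krt8, 1.5-fold. Krt18 was at 2112, 2033 and 2150 CPM in the libraries labelled Rasa1-KO, against 1287, 1308 and 1440 CPM in Nf2-KO, so a fold change far smaller than those above moved far more mRNA. Ftl1, the ferritin light chain, and Tpt1, the translationally controlled tumor protein, were 1.35-fold and 1.68-fold higher. With 12 libraries in the fit the adjusted p was 0.359 for Krt8, 0.109 for Krt18, 0.0624 for Krt19, 0.0624 for Tpt1 and 0.280 for Ftl1. The changes of Bsg, Ahnak, P4hb and Scd2 were at most 0.35 in size on the log2 scale. The call of Bsg was lost without replicate 1 or 3 labelled Rasa1-KO or Nf2-KO replicate 2 (adjusted p = 0.0721, 0.0812 and 0.0767). Ahnak lost its call without replicate 1 or 3 labelled Rasa1-KO or Nf2-KO replicate 2 (adjusted p = 0.0828, 0.0738 and 0.0625), P4hb without replicate 1 labelled Rasa1-KO or Nf2-KO replicate 2 (adjusted p = 0.0573 and 0.0558) and Scd2 without replicate 1 labelled Rasa1-KO (adjusted p = 0.0541).

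**Figure D4:**
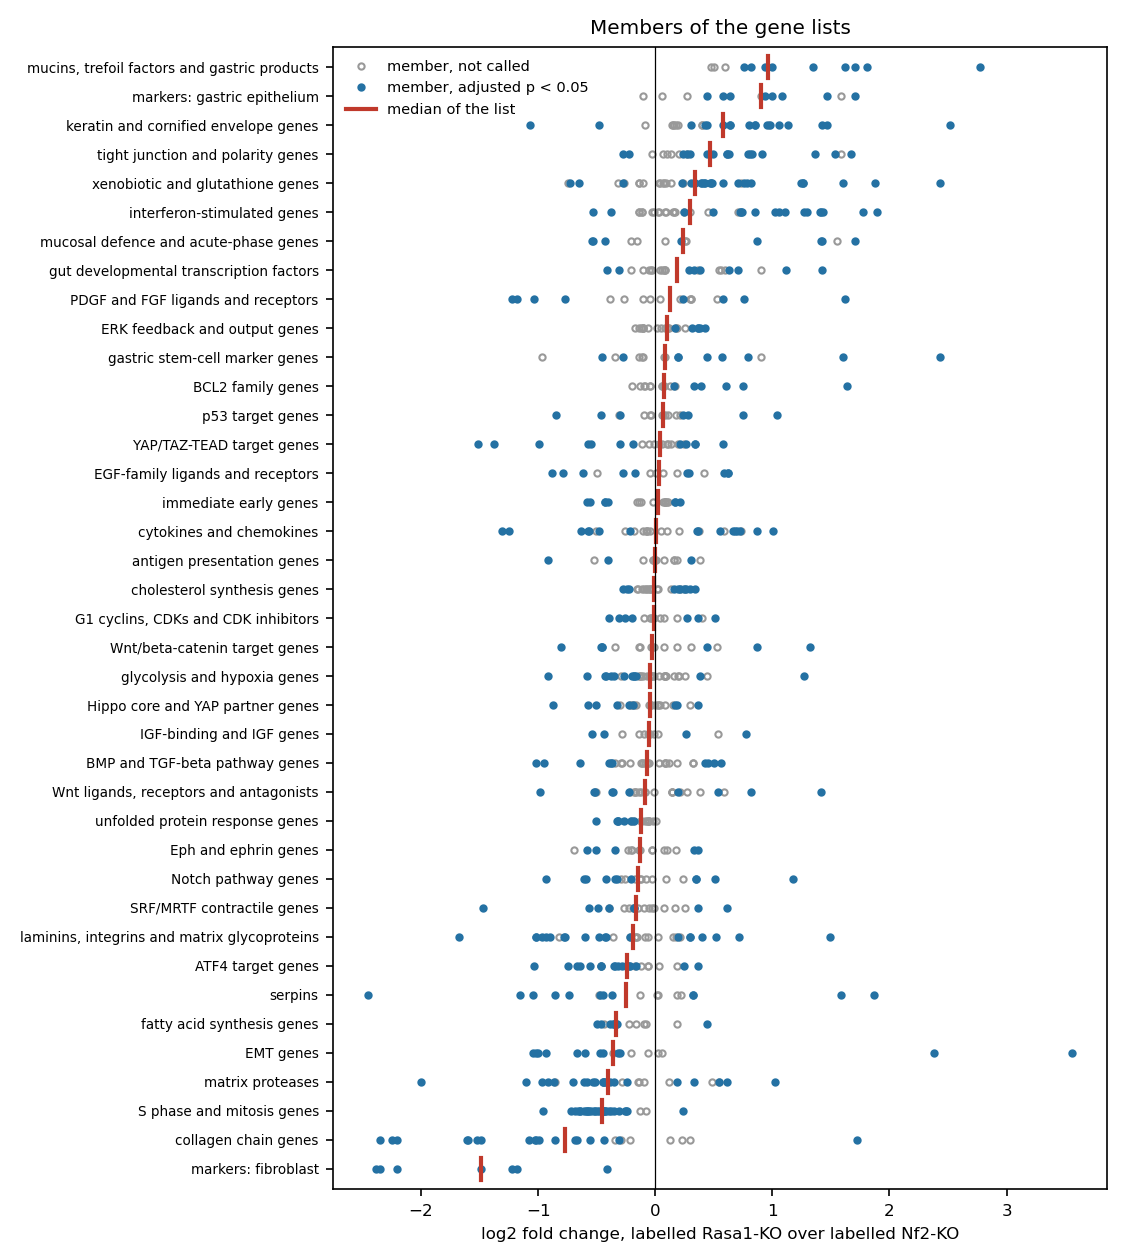
Log2 fold change of the tested members of most gene lists (1 point per gene, filled where the adjusted p was under 0.05), with a bar at the median of each list and lists ordered by that median. Fibroblast markers and collagens lie lowest, with medians of -1.49 and -0.77, and mucins, gastric epithelial markers and keratins highest, with 0.97, 0.91 and 0.58.

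Collagens, the fibrous proteins of the extracellular matrix, were mostly lower in the libraries labelled Rasa1-KO. Of 24 collagen chains tested, 17 were lower, 10 of them at least 2-fold, and 1 was higher, with a median log2 fold change of -0.77 against 0.00 over all genes. Col1a1 (chr11:94936224-94953042), the main chain of type I collagen, was at 65.7, 89.1 and 55.1 CPM in the libraries labelled Rasa1-KO, against 413, 341 and 312 CPM in Nf2-KO (log2 fold change -2.35 ± 0.16, adjusted p = 8.77e-06). Its partner Col1a2 (chr6:4505618-4541543) was at 29.5, 30.6 and 29.1 against 133, 136 and 141 CPM (log2 fold change -2.20 ± 0.05), with little spread between libraries. Col3a1, the chain of type III collagen, was at 2277, 2385 and 2397 against 6233, 6566 and 6926 CPM (-1.49 on the log2 scale). Col6a3 of the microfibrillar type VI collagen was at 56.9, 67.4 and 59.7 against 296, 293 and 281 CPM (-2.25) and Col5a1, which nucleates collagen fibrils, at 166, 192 and 184 against 545, 545 and 552 CPM (-1.61). Col6a1 fell less, by 0.66. The 1 chain that was higher was Col28a1, at 0.427, 0.353 and 0.500 against 0.0706, 0.137 and 0.174 CPM. In the 12-library fit 5 collagens stayed lower and in the 11-library fit 16. The 5 included Col1a2 (adjusted p = 0.0112) and Col6a3 (0.00797), but neither Col1a1 (adjusted p = 0.121, and 0.00211 in the 11-library fit) nor Col3a1 (0.369 and 0.00336). With the length trend removed 17 were lower and the median was -0.68.

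Genes that process or surround collagen were among the lower ones. Serpinh1, the chaperone of collagen in the endoplasmic reticulum, was at 168, 162 and 181 CPM in the libraries labelled Rasa1-KO, against 333, 340 and 376 CPM in Nf2-KO (log2 fold change -1.04). P4ha1 and P4ha2, which hydroxylate collagen prolines, were lower by 0.42 and 0.58, and Bmp1, which cleaves procollagen, by 0.64. Tnc, the matrix glycoprotein tenascin-C, was at 80.2, 87.7 and 85.5 against 268, 267 and 268 CPM (log2 fold change -1.67 ± 0.05, adjusted p = 1.14e-07). Sparc, a collagen-binding protein, was at 343, 367 and 372 against 731, 718 and 726 CPM (-1.01), Fbn1, the main fibrillin of microfibrils, fell by 1.02 and Fn1, fibronectin, by 0.93. Of 32 laminins, integrins and matrix glycoproteins, 13 were lower and 7 higher (median -0.19), and the higher count was 4 without replicate 1 labelled Rasa1-KO. The higher ones included Lamb3, a chain of the laminin of epithelial basement membranes. It was at 54.8, 60.1 and 59.3 against 20.7, 20.8 and 19.9 CPM (log2 fold change 1.5 ± 0.06). The 12-library fit called 3 lower and 1 higher, the 11-library fit 9 and 1.

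Of 30 genes that cleave or crosslink matrix, 17 were lower and 5 higher, with a median of -0.41. Mmp2, a gelatinase, was at 26.0, 28.4 and 25.3 CPM in the libraries labelled Rasa1-KO, against 111, 103 and 103 CPM in Nf2-KO (log2 fold change -2.0 ± 0.07, adjusted p = 1.14e-07). The other gelatinase, Mmp9, fell by 1.11 and the inhibitor Timp3 by 0.97. Mmp15, a membrane-anchored metalloprotease, was higher by 1.02 and Mmp10, a stromelysin, by 0.54. In the 12-library fit 4 stayed lower and 1 higher, and in the 11-library fit 12 and 3. Mmp9 passed both (adjusted p = 0.00864 and 4.04e-04), and Mmp2 had 0.227 and 2.11e-05. Of 18 serpins, 8 were lower and 4 higher (median -0.25), and Serpinb5, the epithelial serpin maspin, was among the latter (1.86). Serpins were called in 0 higher and 1 lower in the 12-library fit (3 and 6 at an unadjusted p under 0.05) and 3 higher and 7 lower in the 11-library fit.

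Markers of fibroblasts moved with the matrix genes. Of 10 listed markers 7 were tested, and all 7 were lower, 6 of them at least 2-fold (2 in the 12-library fit and 7 in the 11-library fit). Besides the collagens already named they were Dcn, a small proteoglycan, Dpt, Pdgfra and Pdgfrb. Their summed level was 2488 to 2623 CPM in the libraries labelled Rasa1-KO, against 7042 to 7647 CPM in Nf2-KO, of which most was Col3a1. Pdgfra and Pdgfrb, the receptors of platelet-derived growth factor, were not near 0 in either group. Pdgfra was at 36.3, 39.5 and 32.1 CPM in the libraries labelled Rasa1-KO, against 81.5, 82.7 and 79.6 CPM in Nf2-KO, and Pdgfrb at 38.3, 41.2 and 38 against 96.7, 90.4 and 85.6 CPM. The summed level of the markers was 75.5 to 938 CPM in control and 120 to 276 CPM in the libraries labelled double-KO. Lum, Thy1 and Postn were not analysed here. In bulk RNA, fewer cells of a type and less RNA per cell cannot be told apart, and the part of another cell type in the fall of the matrix genes was not tested.

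Genes of epithelial-mesenchymal transition were lower more often than higher. Of 17 tested, 10 were lower and 2 higher (median -0.36). The transcription factors Snai1 and Snai2 were lower by 1.05 and 1.0 on the log2 scale, Zeb2 by 0.60 and Zeb1 by 0.32. Snai1 was at 3.21, 3.65 and 3.47 CPM in the libraries labelled Rasa1-KO, against 8.11, 6.83 and 6.30 CPM in Nf2-KO. Both genes that were higher, Cdh11 and the transcription factor Foxc2 (2.38), are also counted as mesenchymal. Vim, the intermediate filament vimentin, did not pass the test, at -0.06 ± 0.06 (adjusted p = 0.510). With 12 libraries the test called 2 lower and 1 higher, the 11-library fit 8 and 2.

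Genes of epithelial structure were mostly higher in the libraries labelled Rasa1-KO. Of 27 keratins and genes of the cornified envelope, 16 were higher and 2 lower, with a median of 0.58. Krt7, a keratin of simple glandular epithelium, was at 371, 371 and 382 CPM in the libraries labelled Rasa1-KO, against 136, 129 and 139 CPM in Nf2-KO (log2 fold change 1.47 ± 0.05, adjusted p = 2.26e-07). Krt14, a keratin of basal squamous cells, was at 4.29, 4.77 and 6.06 against 0.882, 0.741 and 1.01 CPM (2.51), so it rose from a low level. Krt16 and Krt23 rose by 1.42 and 1.13, and Sprr1b of the cornified envelope fell by 1.07. Of 24 tight junction and polarity genes, 15 were higher and 2 lower (median 0.47). Tjp3, a scaffold of tight junctions, was at 13.5, 13.8 and 14.2 against 4.18, 4.0 and 4.82 CPM (log2 fold change 1.67 ± 0.10, adjusted p = 2.72e-06). Ocln, occludin, was at 11.2, 11.4 and 9.93 against 4.19, 4.31 and 4.06 CPM (1.36) and its relative Marveld3 rose by 1.54. The 12-library fit called 5 keratins and 7 junction genes higher and the 11-library fit 13 and 11, Krt7 (adjusted p = 0.00589) and Tjp3 (8.45e-05) in the 12-library fit among them.

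Products and markers of gastric epithelium showed the same direction. Of 12 mucins, trefoil factors and gastric products, 9 were higher and the remaining 3 did not pass the test, with a median of 0.97. Muc13, a transmembrane mucin, was at 26.1, 24.3 and 26.6 CPM in the libraries labelled Rasa1-KO, against 9.10, 8.21 and 7.65 CPM in Nf2-KO (log2 fold change 1.62, adjusted p = 1.82e-06). Ctse, the gastric protease cathepsin E, and Tff2, a trefoil peptide of gastric neck cells, rose by 1.81 and 1.70, Ctse at 1.22, 1.28 and 0.860 against 0.306, 0.274 and 0.371 CPM. With 12 libraries the test called 1 of them, Ctse, and the 11-library fit 4. Of the 13 markers of gastric epithelium, 8 were higher and the remaining 5 did not pass the test. The 12-library fit called 2 of them higher and the 11-library fit 6. Their summed level was 7478 to 7854 CPM in the libraries labelled Rasa1-KO, against 4987 to 5546 CPM in Nf2-KO. The markers include Krt7, Krt8, Krt18, Krt19 and Tff2, already given above, so this list is not independent of those genes. Epcam was at 21.8, 22.6 and 21.7 against 9.97, 10.7 and 10.4 CPM (1.08) and Cdh1, E-cadherin, rose by 0.51. The tables hold only genes with a count in every library, and they held all 13 of these markers, 12 of the 25 listed mucins and gastric products and 7 of the 10 fibroblast markers, so presence in them does not set the cells' identity.

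Some transcription factors of the gut epithelium were higher too. Elf3, an epithelial ETS factor, was at 43.5, 51.4 and 44.2 CPM in the libraries labelled Rasa1-KO, against 22.9, 20.6 and 20.1 CPM in Nf2-KO (log2 fold change 1.12 ± 0.09, adjusted p = 1.56e-05). The hepatocyte nuclear factors Hnf4g and Hnf4a, which drive programs of gut and liver epithelium, rose by 1.42 and 0.63. In all, 7 of 24 tested factors were higher and 2 lower (median 0.18), with 2 higher in the 12-library and 4 in the 11-library fit. Of 17 genes listed as marks of gastric stem cells, 7 were higher and 2 lower (median 0.08), with 3 higher and 0 lower in the 12-library fit (5 and 1 at an unadjusted p under 0.05) and 4 higher and 0 lower in the 11-library fit (6 and 3 at an unadjusted p under 0.05). Prom1, which encodes CD133, was at 304, 281 and 296 against 158, 171 and 179 CPM (0.79, adjusted p = 1.16e-05) and Cd24a rose by 0.57. Lgr5, the Wnt-responsive stem-cell receptor, fell by 0.45, a call that was lost without replicate 1 or 3 labelled Rasa1-KO or Nf2-KO replicate 1 or 2 (adjusted p = 0.103, 0.0897, 0.0638 and 0.0775). Cd44 did not pass the test (-0.13 ± 0.13).

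YAP and TAZ targets, the genes downstream of Nf2, went both ways. Of 22 tested, 5 were higher and 7 lower, with a median of 0.04, and the higher count was 3 without replicate 2 labelled Rasa1-KO or Nf2-KO replicate 2. Ccn1, a secreted matricellular protein, was at 153, 156 and 153 CPM in the libraries labelled Rasa1-KO, against 388, 392.2 and 416 CPM in Nf2-KO (log2 fold change -1.38 ± 0.05, adjusted p = 2.26e-07). Its relative Ccn2 went the other way, at 445, 459 and 459 against 410, 385 and 378 CPM (0.21, adjusted p = 0.0187), a call that was lost without replicate 2 or 3 labelled Rasa1-KO or Nf2-KO replicate 2 (adjusted p = 0.0584, 0.0791 and 0.0595). Ankrd1, a cytoskeletal and nuclear YAP target, rose by 0.34, and Amotl2, a target that also inhibits YAP, fell by 0.58. Ccdc80, a matrix protein, and Rbms3, an RNA-binding protein, fell by 1.52 and 0.99, and Fjx1, a secreted kinase relative, rose by 0.57. The 12-library fit of edgeR called 0 targets higher and 0 lower (0 and 6 at an unadjusted p under 0.05), and the 11-library fit 0 and 6, with adjusted p of 0.178 and 0.0255 for Ccn1. With the length trend removed 9 were higher and 5 lower.

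Members of the Hippo pathway itself changed by less than 2-fold where they were called. Of 24 tested, 3 were higher and 6 lower, against 12% and 13.8% of all genes tested. The list had 0 higher and 0 lower in the 12-library fit (1 and 4 at an unadjusted p under 0.05) and 1 higher and 3 lower in the 11-library fit. The higher count was 1 without replicate 1 or 2 labelled Rasa1-KO, and scaling by library totals gave 1 higher and 10 lower. The largest change was that of Vgll3, a cofactor of TEAD factors, which fell by 0.87. Tead3, a TEAD factor, fell by 0.50, a call that was lost without replicate 1 labelled Rasa1-KO (adjusted p = 0.0689). Yap1 was at 94.3, 102 and 99.3 CPM in the libraries labelled Rasa1-KO, against 105, 97.1 and 99.1 CPM in Nf2-KO and did not pass the test (-0.04 ± 0.06). Wwtr1, which encodes TAZ, fell by 0.23 and Frmd6, a FERM-domain partner of the pathway, by 0.33. The kinases Lats1 and Stk3 and the partner Tead4 did not pass the test, with values of 0.00 ± 0.10, 0.03 ± 0.06 and 0.15 ± 0.10. Lats2, the other Lats kinase, passed the test by little, with a log2 fold change of -0.19 ± 0.06 (adjusted p = 0.0362). That call was lost without replicate 1, 2 or 3 labelled Rasa1-KO or Nf2-KO replicate 1 or 2 (adjusted p = 0.0556 to 0.135). Among 20 contractile genes under SRF and MRTF, 6 were lower and 2 higher (median -0.16), with 1 higher and 0 lower in the 12-library fit (2 and 4 at an unadjusted p under 0.05) and 2 higher and 4 lower in the 11-library fit. Flna, the actin crosslinker filamin A, and Cnn3, a calponin, fell by 0.40 and 0.49, and Vil1, the villin of gut microvilli, rose by 0.61.

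Genes that respond to Ras and ERK signaling rose slightly where they changed. Of 22 tested, 6 were higher, none of them 2-fold, and the remaining 16 did not pass the test, with a median of 0.10. Dusp4, a nuclear phosphatase that ERK induces and that dephosphorylates it, was at 81.7, 83.4 and 87.1 CPM in the libraries labelled Rasa1-KO, against 59.3, 64.0 and 63.8 CPM in Nf2-KO (log2 fold change 0.42 ± 0.05, adjusted p = 3.79e-04). Ccnd1, cyclin D1, was at 361, 376 and 373 against 283, 288 and 289 CPM (0.36), and Plaur, the urokinase receptor, rose by 0.38. The groups did not overlap for these 3 genes. Dusp6, the cytosolic ERK phosphatase, was at 207, 188 and 193 against 186, 196 and 198 CPM and did not pass the test (0.01 ± 0.05), nor did Spry2 (0.11 ± 0.07), Etv4 (0.05 ± 0.07) or Etv5 (-0.06 ± 0.09). The 12-library fit of edgeR called 0 of the list (5 higher at an unadjusted p under 0.05) and the 11-library fit 3, with adjusted p of 0.0819 and 0.0213 for Dusp4. Removal of the length trend left 7 higher with a median of 0.09. Immediate early genes went both ways, 3 higher and 5 lower of 18 (median 0.02), with Jun and Fosl2, parts of AP-1, lower by 0.43 and 0.56. The 3 higher ones, Fos (0.17), Junb (0.21) and Ier3 (0.17), each lost the call without replicate 1 or 3 labelled Rasa1-KO or Nf2-KO replicate 1 or 2, and Fos and Junb also without replicate 2 labelled Rasa1-KO (adjusted p = 0.0518 to 0.194). They were not called when libraries were scaled by totals alone. The list had 0 higher and 1 lower in the 12-library fit (0 and 2 at an unadjusted p under 0.05) and 0 higher and 1 lower in the 11-library fit (0 and 3 at an unadjusted p under 0.05).

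Negative regulators of Ras and their relatives other than Rasa1 went both ways. Rasal1, a calcium-regulated RasGAP, was at 3.99, 4.19 and 3.22 CPM in the libraries labelled Rasa1-KO, against 1.51, 1.59 and 1.78 CPM in Nf2-KO (log2 fold change 1.22 ± 0.15, adjusted p = 2.34e-04). Rasa2 rose by 0.34, and Nf1, the RasGAP neurofibromin, did not pass the test (-0.37 ± 0.16). Iqgap2 and Iqgap3, scaffolds with a domain related to that of RasGAPs, differed in direction, with 0.52 and -0.75. Dab2ip, another RasGAP, fell by 0.24 and Spred3, an inhibitor of ERK signaling, by 0.42. The call of Dab2ip was lost without replicate 1 labelled Rasa1-KO (adjusted p = 0.0585) and that of Spred3 without replicate 1, 2 or 3 labelled Rasa1-KO or Nf2-KO replicate 1 or 2 (adjusted p = 0.0648, 0.0756, 0.120, 0.100 and 0.0589). In all 3 of 15 were higher and 4, Rasa1 included, lower, with 2 higher and 2 lower in the 12-library fit and 3 higher and 2 lower in the 11-library fit. The lower count was 2 without replicate 1 labelled Rasa1-KO.

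Upstream of Ras, receptors and ligands of the EGF family were split, 5 higher and 5 lower of 16. These counts rested on single libraries, with 3 without replicate 2 labelled Rasa1-KO or Nf2-KO replicate 2 for the higher and 3 without replicate 2 or 3 labelled Rasa1-KO or Nf2-KO replicate 2 or 3 for the lower genes, and there were 1 higher and 0 lower in the 12-library fit (3 and 3 at an unadjusted p under 0.05) and 3 higher and 2 lower in the 11-library fit. Egfr, the receptor of epidermal growth factor, was at 70.3, 73.3 and 68.1 CPM in the libraries labelled Rasa1-KO, against 127, 122 and 116 CPM in Nf2-KO (log2 fold change -0.79 ± 0.06, adjusted p = 1.15e-05). Nrg1, a ligand of Erbb3, was lower by 0.88, while Erbb3 itself was higher by 0.62 and the ligands Btc and Hbegf by 0.62 and 0.29. Erbb2 did not pass the test (0.07 ± 0.07). Of 18 PDGF and FGF genes, 4 were higher and 4 lower, with 2 higher and 0 lower in the 12-library fit (4 and 3 at an unadjusted p under 0.05) and 3 higher and 4 lower in the 11-library fit. Besides the receptors Pdgfra (-1.18) and Pdgfrb (-1.22), the ligand Fgf7 fell by 0.77, whereas Pdgfd, a ligand of PDGF receptor beta, was at 4.36, 4.56 and 4.49 against 1.18, 1.64 and 1.53 CPM (1.62) and Fgf1 rose by 0.58. In the 12-library fit Pdgfd, Fgf1 and Btc kept their calls (adjusted p = 0.00320, 0.0122 and 0.00985), and Egfr had 0.135 there and 0.00150 in the 11-library fit.

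Wnt genes and their targets showed no common direction. Of 17 targets of beta-catenin, 3 were higher and 4 lower (median -0.03). Axin2, a feedback inhibitor of the pathway, was at 7.99, 8.71 and 8.60 CPM in the libraries labelled Rasa1-KO, against 16.1, 13.7 and 14.1 CPM in Nf2-KO (log2 fold change -0.80 ± 0.09, adjusted p = 1.97e-04), and Apcdd1, another inhibitor, fell by 0.47. Notum, a secreted enzyme that inactivates Wnt ligands, was at 9.03, 7.58 and 9.64 against 3.63, 3.22 and 3.59 CPM (1.32). Of 27 ligands, receptors and antagonists, 4 were higher and 6 lower (median -0.09), against 12% and 13.8% of all genes tested. Wnt7b was at 410, 414 and 421 against 283, 273 and 298 CPM (0.54), and Wnt4 and the antagonist Sfrp2 rose by 0.82 and 1.41. Wnt5a, a ligand mostly of beta-catenin-independent signaling, fell by 0.52. Of the targets, the 12-library fit called 1 higher and 1 lower and the 11-library fit 2 and 3. Of the ligands, receptors and antagonists, they called 2 higher and 0 lower, and 3 and 1. The 12-library fit kept Notum (adjusted p = 0.0337), Wnt7b (0.0235), Wnt4 (0.0153) and Axin2 (0.0476), but not Sfrp2 (0.382), Wnt5a (0.783) or Apcdd1 (0.142).

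Genes that the study measured in these cells make up most of a further list, which is thus not independent of these samples. Of its 15 genes 6 were higher and 4 lower. The higher count was 3 without replicate 2 or 3 labelled Rasa1-KO and 3 when libraries were scaled by totals alone, and there were 1 higher and 1 lower in the 12-library fit and 2 higher and 3 lower in the 11-library fit. Those with larger changes were the lower genes Ccn1, Axin2, Wnt5a and Birc5 (-0.46), survivin, a protein of dividing cells, and the higher genes Igfbp4 (0.78), a binding protein of insulin-like growth factors, Aqp5 (0.45), a water channel, and Ccnd1. Igfbp4 was at 246, 252 and 274 CPM in the libraries labelled Rasa1-KO, against 149, 146 and 153 CPM in Nf2-KO. Mcl1 (0.16), an antiapoptotic relative of Bcl2 that the study does not name, and Ctnnb1 (0.16), which encodes beta-catenin, passed the test by little. The call of Mcl1 was lost without replicate 1, 2 or 3 labelled Rasa1-KO or Nf2-KO replicate 1 or 3 (adjusted p = 0.114, 0.0849, 0.147, 0.143 and 0.0901), and that of Ctnnb1 without any 1 of the 6 libraries (adjusted p = 0.0507 to 0.148). Bmp4 (0.08 ± 0.05), Myc (0.08 ± 0.10), Bcl2 (0.06 ± 0.09), Bcl2l1 (0.17 ± 0.09) and Yap1 did not pass the test.

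Of the BCL2 family, which controls mitochondrial apoptosis, 6 of 18 genes were higher and the remaining 12 did not pass the test (median 0.07), with 2 higher and 0 lower in the 12-library fit (4 and 0 at an unadjusted p under 0.05) and 4 higher and 0 lower in the 11-library fit (5 and 0 at an unadjusted p under 0.05). Pmaip1, the BH3-only protein NOXA that binds MCL1, was at 72.0, 73.7 and 73.5 CPM in the libraries labelled Rasa1-KO, against 43.1, 43.8 and 43.1 CPM in Nf2-KO (log2 fold change 0.75 ± 0.05, adjusted p = 7.49e-06). Bid and Bok rose by 0.61 and 0.39, and Bcl2l14 by 1.64 from a low level, at 0.904, 0.754 and 0.783 against 0.259, 0.194 and 0.325 CPM. The antiapoptotic Bcl2 was at 22.7, 26.5 and 23 against 24.7, 22.7 and 21.8 CPM and Bcl2l1, which encodes BCL-XL, at 36.5, 42.9 and 42.7 against 39.2, 34.8 and 33.9 CPM, and the groups overlapped for both genes. The effectors Bax (-0.04 ± 0.07) and Bak1 (-0.13 ± 0.06) did not pass the test. Pmaip1 and Bcl2l14 kept their calls in the 12-library fit (adjusted p = 0.00992 and 0.00735). Of 17 p53 targets, 4 were higher, among them Perp (1.04), a desmosomal protein, and 3 lower, among them the death receptor Fas (-0.85), with 2 higher and 1 lower in the 12-library fit and 2 higher and 2 lower in the 11-library fit.

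Genes of dividing cells were lower almost without exception, by small amounts. Of 35 genes of S phase and mitosis, 31 were lower and 1 higher, none of them 2-fold, and the median was -0.46. Mki67, the proliferation antigen Ki-67, was at 105, 117 and 98.1 CPM in the libraries labelled Rasa1-KO, against 226, 210 and 181 CPM in Nf2-KO (log2 fold change -0.95 ± 0.09, adjusted p = 5.46e-05). Tpx2, a spindle assembly factor, was at 46.2, 48.8 and 47.9 against 73.8, 76.1 and 74.7 CPM (-0.66), Bub1, a kinase of the spindle checkpoint, fell by 0.72 and Cenpe, a kinetochore motor, by 0.68. The 1 gene that was higher was Rrm2, a subunit of ribonucleotide reductase (0.24), which lost its call without replicate 1, 2 or 3 labelled Rasa1-KO (adjusted p = 0.0514, 0.0730 and 0.0664). The summed level of the list was 2120 to 2161 CPM in the libraries labelled Rasa1-KO, against 2877 to 2957 CPM in Nf2-KO. With the length trend removed 31 stayed lower (median -0.47), in the 12-library fit 13 and in the 11-library fit 26. G1 cyclins, their kinases and inhibitors were split, 3 higher and 4 lower of 16, and Cdkn1a, the inhibitor p21, did not pass the test (-0.04 ± 0.24). For the G1 genes the lower count was 2 without Nf2-KO replicate 2, and there were 0 higher and 0 lower in the 12-library fit (1 and 1 at an unadjusted p under 0.05) and 1 higher and 1 lower in the 11-library fit.

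Targets of ATF4, the factor of the response to amino acid shortage, were lower in 17 and higher in 2 of 26 cases (median -0.24), while Atf4 mRNA did not pass the test (-0.07 ± 0.06). Slc7a11, the cystine transporter, was at 20.6, 19.7 and 19.8 CPM in the libraries labelled Rasa1-KO, against 31.3, 32.5 and 31.3 CPM in Nf2-KO (log2 fold change -0.67 ± 0.06, adjusted p = 4.59e-05). Cth, which makes cysteine, and Chac1, which breaks down glutathione, fell by 0.74 and 0.64, and Fgf21, a secreted stress hormone, by 1.04. Of 19 genes of the unfolded protein response, 7 were lower and the remaining 12 did not pass the test (median -0.12), and Hspa5, the chaperone BiP, was at 1161, 1099 and 1155 against 1495, 1657 and 1684 CPM (-0.51). The 12-library fit called 4 ATF4 targets lower and the 11-library fit 10. Of the unfolded protein response the 12-library fit of edgeR called 0 (3 lower at an unadjusted p under 0.05) and the 11-library fit 2.

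Among genes of lipid synthesis the calls were mostly on the lower side for fatty acids. Of 16 genes of fatty acid synthesis, 9 were lower and 1 higher (median -0.33), with the desaturases Fads1 and Fads2 lower by 0.50 and 0.46. With the length trend removed 7 were lower and the median was -0.22, and there were 0 higher and 1 lower in the 12-library fit (0 and 8 at an unadjusted p under 0.05) and 0 higher and 6 lower in the 11-library fit (1 and 10 at an unadjusted p under 0.05). Of 24 genes of cholesterol synthesis and uptake, 7 were higher and 3 lower (median -0.01), but the higher count was 3 without replicate 1 labelled Rasa1-KO or Nf2-KO replicate 2, and scaling by library totals gave 3 higher and 5 lower. They had 0 higher and 0 lower in the 12-library fit (0 and 0 at an unadjusted p under 0.05) and 0 higher and 0 lower in the 11-library fit (2 and 1 at an unadjusted p under 0.05). Of 35 genes of glycolysis and hypoxia, 11 were lower, among them Car9 (-0.92) and Car12 (-0.43), carbonic anhydrases at the cell surface, and 2 higher (median -0.04). Their lower count was 6 without replicate 2 or 3 labelled Rasa1-KO and 7 without replicate 1 labelled Rasa1-KO or Nf2-KO replicate 2, and there were 0 higher and 2 lower in the 12-library fit (1 and 5 at an unadjusted p under 0.05) and 1 higher and 4 lower in the 11-library fit.

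Detoxifying enzymes were more often higher than lower. Of 39 genes of xenobiotic and glutathione metabolism, 22 were higher, 6 of them at least 2-fold, and 3 lower (median 0.34, and 0.23 with the length trend removed). Aldh1a1, a retinaldehyde dehydrogenase used as a stem-cell marker, was at 7.06, 6.49 and 6.31 CPM in the libraries labelled Rasa1-KO, against 1.99, 2.13 and 2.38 CPM in Nf2-KO (log2 fold change 1.60 ± 0.11, adjusted p = 9.67e-06). Its relatives Aldh1a3 and Aldh1a7 rose by 2.43 and 1.88, and Gsta3, a glutathione transferase, by 1.26. Aldh1a7 is close to Aldh1a1 in sequence, so the split of reads between them is uncertain. In the 12-library fit 10 stayed higher and in the 11-library fit 17, Aldh1a1 in both (adjusted p = 8.70e-05 and 1.45e-06).

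Interferon-stimulated genes, which defend cells against viruses, were higher in 17 of 35 cases, at least 2-fold in 10, and lower in 2 (median 0.29). Usp18, a brake on interferon signaling, was at 1.9, 1.22 and 1.93 CPM in the libraries labelled Rasa1-KO, against 0.494, 0.422 and 0.429 CPM in Nf2-KO (log2 fold change 1.89 ± 0.24, adjusted p = 3.15e-04). Ifit3, which binds viral RNA complexes, was at 6.65, 6.79 and 6.97 against 2.67, 2.41 and 2.54 CPM (1.41), its near copy Ifit3b at 3.25, 2.56 and 2.59 against 0.976, 0.764 and 0.697 CPM (1.78), and Rsad2, the antiviral enzyme viperin, rose by 1.44. Reads of Ifit3 and Ifit3b may be split between them. Irf7, a factor that amplifies the response, rose by 0.73, while Irf9 (0.15 ± 0.08) and the receptor subunit Ifnar1 (0.03 ± 0.05) did not pass the test. Both lower genes, Ifitm3 and Ifitm1, encode membrane proteins that block viral entry (-0.53 and -0.38), and the summed level of the list was 471 to 479 CPM in the libraries labelled Rasa1-KO, against 441 to 464 CPM in Nf2-KO. With 12 libraries the test called 5 higher and the 11-library fit 13.

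Promoters are shown for 3 of the higher genes because they hold the same short element that interferon regulatory factors bind. The core of the interferon-stimulated response element was searched as TTTCNNTTT on both strands of the 250 bases before each RefSeq start (GRCm38.p6). It was present in 3079 of 32851 promoters, 9.37%. Among interferon-stimulated genes, 11 of 16 promoters of higher genes held it (68.8%, 13 of the 17 genes matched), 8 of 17 promoters of genes without a call (47.1%, 13 of 16 matched), and 0 of 2 promoters of the lower genes. A match is a description of letters and not a measured site. The 200 bases before the start are given 5′ to 3′ for Ifit3b (chr19:34607757-34607956, plus strand), Ifit3 (chr19:34583329-34583528, plus strand) and Rsad2 (chr12:26456453-26456652, minus strand), with matches in capitals. Usp18 was not among the promoters given.
Ifit3b: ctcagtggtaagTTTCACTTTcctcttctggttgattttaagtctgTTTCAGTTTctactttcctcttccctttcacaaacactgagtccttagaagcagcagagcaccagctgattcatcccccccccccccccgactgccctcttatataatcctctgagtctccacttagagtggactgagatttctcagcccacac
Ifit3: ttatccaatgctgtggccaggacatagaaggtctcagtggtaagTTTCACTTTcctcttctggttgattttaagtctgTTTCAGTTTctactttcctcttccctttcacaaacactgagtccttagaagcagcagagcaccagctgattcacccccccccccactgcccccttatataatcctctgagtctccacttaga
Rsad2: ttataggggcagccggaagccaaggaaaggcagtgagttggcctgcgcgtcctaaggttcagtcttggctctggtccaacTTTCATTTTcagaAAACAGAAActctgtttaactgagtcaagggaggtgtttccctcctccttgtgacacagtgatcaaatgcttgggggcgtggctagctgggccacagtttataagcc
Each window holds 2 matches, and those of Ifit3 and Ifit3b have the same letters.

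Other immune genes were divided. Of 30 cytokines and chemokines, 9 were higher and 7 lower (median 0.01), with 2 higher and 3 lower in the 12-library fit and 7 higher and 4 lower in the 11-library fit. Csf1, the growth factor of macrophages, was at 50.5, 55.1 and 50.8 CPM in the libraries labelled Rasa1-KO, against 127, 122 and 122 CPM in Nf2-KO (log2 fold change -1.25 ± 0.06, adjusted p = 7.04e-07), and Ccl9 fell by 1.31. Ccl20, a chemokine of mucosal epithelium, and Csf3, the growth factor of granulocytes, rose by 0.87 and 0.70. Of 14 genes of mucosal defence, 5 were higher and 3 lower, with 2 higher and 0 lower in the 12-library fit (3 and 3 at an unadjusted p under 0.05) and 3 higher and 1 lower in the 11-library fit, and the higher count was 3 without replicate 1 labelled Rasa1-KO or Nf2-KO replicate 1 or 2. Wfdc2, a protease inhibitor of epithelia, was at 99.5, 92.5 and 104 against 36.2, 34.2 and 39.5 CPM (1.42 ± 0.07), Dmbt1, a scavenger protein of mucus, rose by 1.71 and Lcn2, the siderophore-binding lipocalin, by 0.87. Antigen presentation genes were called in 1 higher and 2 lower of 14 cases, against 12% and 13.8% of all genes tested. Among them the immunoproteasome subunit Psmb8 was lower by 0.91. The list had 0 higher and 0 lower in the 12-library fit (0 and 2 at an unadjusted p under 0.05). In the 11-library fit it had 0 higher and 2 lower (1 and 2 at an unadjusted p under 0.05). Csf1 (adjusted p = 0.00107), Wfdc2 (3.30e-04) and Lcn2 (0.00523) kept their calls in the 12-library fit. Of 12 leukocyte markers 4 were analysed here, and their sum was 93.7 to 103 CPM in the libraries labelled Rasa1-KO, against 65.7 to 69.8 CPM in Nf2-KO, most of it Cd14. Of 8 endothelial markers 4 were analysed, with a sum of 1.37 to 1.81 against 1.25 to 1.49 CPM. The part of such cells in these results was not tested.

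Among receptors of the Notch pathway, Notch1, Notch2 and Notch3 were lower. Notch2 was at 199, 219 and 189 CPM in the libraries labelled Rasa1-KO, against 335, 296 and 292 CPM in Nf2-KO (log2 fold change -0.61 ± 0.07, adjusted p = 2.68e-04), and Notch1 and Notch3 fell by 0.59 and 0.93. The targets were split, with Hes1 higher by 0.35 and Hey1 lower by 0.42, and over 20 genes of the pathway 4 were higher and 7 lower (median -0.15), with 0 higher and 0 lower in the 12-library fit (1 and 3 at an unadjusted p under 0.05) and 0 higher and 4 lower in the 11-library fit (4 and 6 at an unadjusted p under 0.05). The higher count was 2 without replicate 1 or 2 labelled Rasa1-KO or Nf2-KO replicate 1 or 2. Notch receptors have long transcripts, and with the length trend removed Notch1 had a log2 fold change of -0.43 (adjusted p = 2.79e-04), Notch2 -0.43 (5.86e-05) and Notch3 -0.80 (1.88e-04). Of 16 Eph receptors and ephrins, 2 were higher and 3 lower, against 12% and 13.8% of all genes tested. They had 0 higher and 1 lower in the 12-library fit (1 and 3 at an unadjusted p under 0.05) and 1 higher and 2 lower in the 11-library fit. Of 29 genes of the BMP and TGF-beta pathways, 4 were higher and 6 lower (median -0.07), against the same 12% and 13.8% of all genes. They had 1 higher and 1 lower in the 12-library fit and 2 higher and 4 lower in the 11-library fit. Among them the BMP targets Id1 and Id2 were higher (0.45 and 0.56), while the activin subunit Inhbb was lower, at 23.5, 23.6 and 25.0 against 48.3, 48.4 and 49.1 CPM (-1.02), and the receptor Tgfbr2 fell by 0.37. Smad4 and Trp53, engineered genes of the line, did not pass the test (-0.02 ± 0.08 and -0.28 ± 0.16). Igf2r, which clears IGF2, fell by 0.54, and 2 of 13 IGF genes were higher and 2 lower, with 1 higher and 1 lower in the 12-library fit and 1 higher and 2 lower in the 11-library fit.

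Among noncoding RNAs, the changes chosen by size were of Rnu3a, Abhd11os and Mir670hg, which rose, and LOC115490372, Dnm3os and 5730596B20Rik, which fell. Mir670hg had no call without replicate 3 labelled Rasa1-KO (adjusted p = 0.0721). Rnu3a, a copy of the U3 small nucleolar RNA that helps to process ribosomal RNA, was at 20.5, 23.4 and 23.9 CPM in the libraries labelled Rasa1-KO, against 6.23, 4.09 and 8.22 CPM in Nf2-KO (log2 fold change 1.87 ± 0.20, adjusted p = 1.18e-04). Its copies are near-identical, so which of them gave the reads is uncertain. Dnm3os, a host transcript of microRNAs, was at 0.239, 0.207 and 0.295 against 1.35, 1.03 and 0.882 CPM (-2.14). H19, the imprinted noncoding RNA, fell by 0.81. Of 15 abundant structural RNAs, 5 were higher, the 7S copies Rn7s1 (0.67) and Rn7s2 (0.60) among them, and 2 lower (median 0.16), with 0 higher and 0 lower in the 12-library fit (2 and 2 at an unadjusted p under 0.05) and 1 higher and 2 lower in the 11-library fit.

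The remaining 2 groups of the series put these levels in context. Col1a2 was at 0.227 ± 0.244 CPM (SD, n = 3) in control and 0.183 ± 0.115 CPM in the libraries labelled double-KO, below both groups compared here. Ccn1 was at 43.0 ± 22.8 CPM in control, and Mki67 at 101 ± 22.5 CPM. The control level of Tjp3 was 73.8 ± 8.13 CPM and that of Lamb3 158 ± 60.4 CPM, above both groups. Krt7 at 68.2 ± 14.8 CPM in control lay below both. For Tjp3 and Lamb3 the libraries labelled Rasa1-KO were thus nearer to control than Nf2-KO was, and for Krt7 farther from it. These levels are given as a description, without a test.

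**Figure D5:**
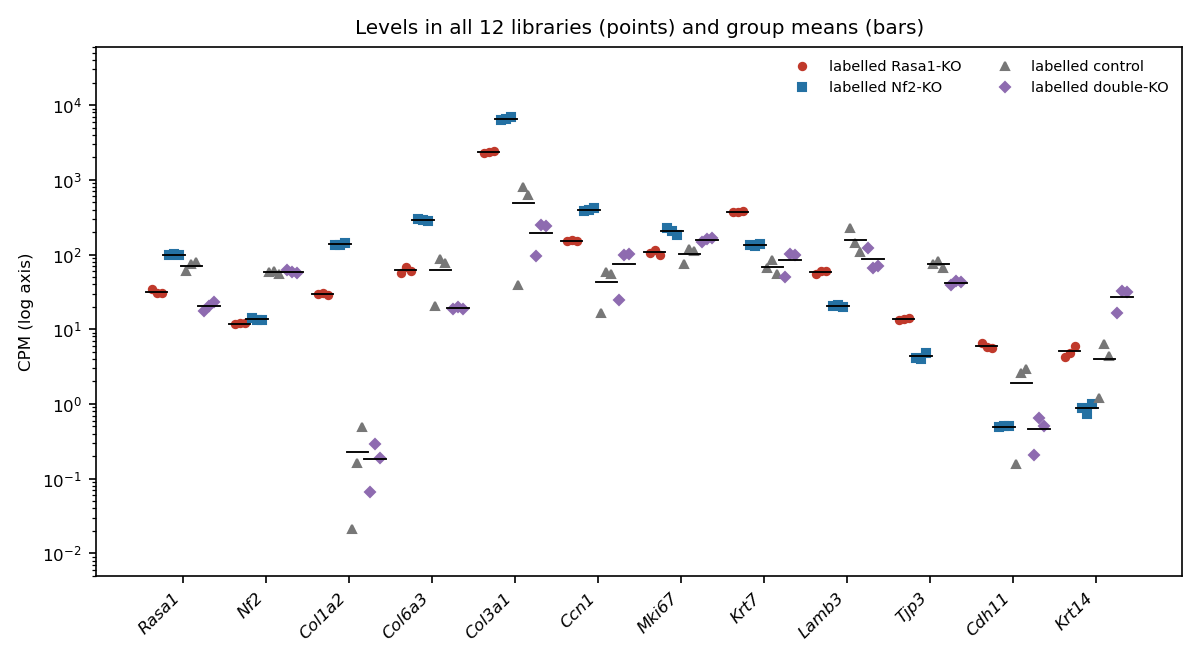
Levels of 12 genes in CPM (log axis) in all 12 libraries, 1 point per library with a bar at the mean of each group of 3. Nf2 is near 58.2 CPM in control and the libraries labelled double-KO and between 11.6 and 14.3 CPM in the groups compared here, and Col1a2 is at 0.227 and 0.183 CPM in the first pair of groups.

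The libraries labelled double-KO and the control libraries are another pair in which 1 group had low Rasa1 mRNA, at 20.5 ± 2.80 against 71.3 ± 9.54 CPM, here with Nf2 mRNA alike (log2 fold change 0.02 ± 0.09), and it shares no library with the pair above. Rasa1 differed by -1.79 ± 0.13 there (adjusted p = 5.47e-05), and the difference between the pairs was 0.17 ± 0.18 (adjusted p = 0.682). In that pair 722 genes were higher and 444 lower, 4% and 2.46%. Of the 369 genes at least 2-fold higher between the libraries labelled Rasa1-KO and Nf2-KO, 25 were also higher there (6.78% of this list and 3.46% of that one) and 32 were lower (8.67%). Of the 281 genes at least 2-fold lower, 19 were also lower (6.76% and 4.28%) and 9 were higher (3.20%). Control replicate 1 and replicate 1 of the libraries labelled double-KO stood apart from their groups. Without the former 3131 of 18180 genes tested were higher and 2346 lower in that pair. Of the 369 genes 44 were then also higher and 98 lower, and of the 281 genes 91 were also lower and 13 higher. Without both, 3100 of 18169 genes tested were higher and 2333 lower there. The counts within the 369 and 281 genes, in the same order, were then 67, 102, 88 and 25. The difference between the pairs itself was called for 485 genes in 1 direction and 672 in the other, 2.69% and 3.72%, and for 3762 without control replicate 1. Leaving out any 1 of the 6 libraries compared above, or replicate 2 or 3 of those labelled double-KO, lowered the count, to 628 without replicate 1 labelled Rasa1-KO. Krt14 was higher in both pairs, by 2.51 and 2.78, and Aldh1a1 by 1.60 and 0.85. Among genes with a called difference between the pairs, the fold changes of Mki67 had opposite signs, -0.95 here and 0.63 there. So did those of Tjp3 (1.67 and -0.82) and Prom1 (0.79 and -0.53). The values of that pair are given for these 3 genes without its own test. Col1a2 differed by -0.11 ± 0.71 in that pair and did not pass the test.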

How the data were processed

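Total RNA of 12 libraries of S1 cells, 3 per group, was sequenced with a stranded kit. Per the study's methods and the submitters' notes, the authors used Trimmomatic 0.38 for trimming, HISAT2 2.1.0 for alignment to mm10 and StringTie 2.1.3b for quantifying RefSeq genes, and deposited raw counts, FPKM and TPM per gene. Deposited counts were tested, FPKM served only to derive transcript lengths, and TPM and the authors' own log2 and fold-change columns, which compare groups, were not used. Genes without a count in some library were not analysed here. Counts of the 6 libraries were filtered with filterByExpr, scaled by TMM and tested with the quasi-likelihood test of edgeR 4.0.16 in R 4.3.3, with Benjamini-Hochberg adjustment over all genes tested. Fold changes come from this fit, and printed CPM from TMM scaling of all 12 libraries. The difference between the 2 pairs of groups was tested as an interaction over the 12 libraries. Total counts of 81566766 to 87751112 set only the counting error. Replicate libraries of these groups differed by more than that, with median chi-squares per gene of 2.52 to 4.27, against 0.455 from sampling alone.

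Alternatives were RLE size factors, library totals, DESeq2 1.42.0, no filter, at least 10 counts in each library, all 12 libraries, each library left out, and a block by the number in the table names or in the titles. Removal of the length trend and leaving out libraries that stand apart were chosen after seeing the data. Same-numbered libraries had correlations of their deviations of -0.025, -0.044 and 0.134 by table name and of 0.167 and 0.020 by title, so the numbers were not taken to pair them. The members and the gene lists were chosen with earlier results of these data known. Genes named are, each way, the 12 with the largest fold change among called genes without overlap between groups and with more than 3 counts in each library, the 6 with the largest change in amount, up to 4 of each list, 3 noncoding genes, and genes fixed for their role or named by the study, and a few genes that this rule gave are not reported here. On simulated counts of this comparison 195 of 200 genes changed 2-fold were called among 17548, with 10 others. Of genes changed 4-fold, 200 of 200 were called among 17545, with 15 others. The changed genes were drawn above a floor of mean expression, and libraries were simulated independently and without the length trend. These figures thus do not describe genes at low levels or the effect of that trend.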

Additional observations from a re-analysis of the deposited data

Results flagged for a closer look

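The results listed here are genes whose difference between the libraries labelled Rasa1-KO and Nf2-KO departed from that between the libraries labelled double-KO and control. The test was the interaction over the 12 libraries in edgeR, with an adjusted p under 0.05. It called 71 of the 214 genes that the text names, and 2.69% and 3.72% of all 18053 genes tested in the 2 directions. Each value is the first log2 fold change minus the second, so a positive value says that the gene was relatively higher in the first pair. Of the 214 genes, 189 were called in the first pair alone, whose fold change is a part of each value. The share called and the signs thus follow in part from how the genes were named.

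Among genes of cell division the differences were -1.58 for Mki67, -1.18 for Bub1, -1.08 for Cenpe, -1.10 for Tpx2 and -1.21 for Birc5. All 5 were lower in the first pair, with Mki67 at -0.95 there and 0.63 in the second, so the fold changes had opposite signs. Epithelial genes were on the positive side, with 2.49 for Tjp3, 1.54 for Ocln, 1.93 for Epcam, 2.38 for Lamb3, 1.11 for Elf3, 0.97 for Hnf4a, 1.62 for Perp, 1.33 for Prom1, 0.77 for Cd24a and 1.40 for Vil1. Tjp3 was 1.67 in the first pair and -0.82 in the second.

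Matrix genes and their enzymes gave -1.15 for Sparc, -2.12 for Tnc, -2.54 for Timp3, -1.12 for P4ha1, -1.83 for P4ha2, -1.01 for P4hb, 2.21 for Col28a1 and 2.13 for Mmp15. For Timp3 the fold changes were -0.97 and 1.58. The mesenchymal genes gave 5.62 for Cdh11, 4.41 for Foxc2 and -1.0 for Vim.

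Among genes with the largest fold changes the values were 4.47 for Ms4a8a, 4.90 for B4galnt3, 2.74 for Scarf2, 3.34 for Srgap1 and 3.27 for Myh14 on the positive side and -3.94 for Tro, -3.12 for Gm9780, -2.96 for Gm14139, -3.35 for Plac9b and -4.48 for Slc6a15 on the negative. Growth factor, Wnt and Ras genes gave 2.34 for Rasal1, -1.28 for Iqgap3, -0.52 for Dusp6, -0.73 for Fosl2, 1.51 for Pdgfd, 0.81 for Fgf1, -1.26 for Axin2, -1.01 for Apcdd1, 1.06 for Wnt4, 1.19 for Igfbp4, -0.74 for Igf2r, -0.86 for Bmp4 and -0.64 for Tgfbr2. Rasal1, a RasGAP, was 1.22 in the first pair and -1.11 in the second. Hippo and YAP genes and contractile genes gave -1.13 for Amotl2, -1.08 for Frmd6, 1.52 for Fjx1, -0.76 for Wwtr1, -0.50 for Lats2 and -0.96 for Cnn3.

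Metabolic and stress genes gave -2.53 for Car9, -1.11 for Car12, -1.03 for Fads1, -0.93 for Scd2, -0.96 for Slc7a11, -1.21 for Chac1, 0.76 for Aldh1a1, 1.95 for Aldh1a7 and 2.74 for Gsta3. Aldh1a1 was higher in both pairs, by 1.60 and 0.85, and differed in size. Immune, defence and apoptosis genes gave 1.12 for Wfdc2, 2.24 for Lcn2, 1.07 for Csf3, 1.5 for Ifit3b, -1.74 for Psmb8, 1.01 for Cd14 and 1.63 for Bcl2l14. Control replicate 1 and replicate 1 of the libraries labelled double-KO stood apart from their groups. Without the former the difference was called for 71 of the 71 genes, and without both for 71. Over all genes these 2 fits called 3762 and 4603, more than with all 12 libraries, so keeping a call in them is a weak check.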

How the results depend on the processing

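Of the 4527 called genes 1, Vps13b, named after its values were seen, changed its sign, from -0.21 to 0.02 with the length trend removed, where it had no call, and none did under the other alternatives. Sox9, without a call at first, was called lower (-0.27 on the log2 scale) with a block by the titles. With all 12 libraries in 1 fit, 661 genes were called (346 higher, 315 lower, 258 at least 2-fold), and with 11 libraries 2220 (996 higher, 1224 lower). At an adjusted p under 0.01 there were 2549. Library totals alone gave Nf2 a log2 fold change of -0.26 (adjusted p = 0.0314). When each library was left out in turn, 3102 to 4359 genes were called, 1444 to 2088 higher and 1635 to 2271 lower, 576 to 673 of them at least 2-fold and 251 to 274 by the study's rule. Rasa1 lay between -1.69 and -1.60 and Nf2 between -0.22 and -0.16, and the difference between the pairs was called for 628 to 3762 genes, most without control replicate 1. A block by the number in the table names called 4407 genes and a block by the titles, over 4 libraries, 6245, and neither number was shown to pair the libraries. DESeq2 called 4695. Of 291 called genes that the naming rule gave, 288 kept their call with DESeq2, 281 with the length trend removed, 80 with 12 libraries and 185 with 11, and 250 to 277 when 1 library was left out. Why the calls depended on the libraries that set the error was not tested beyond leaving out control replicate 1.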

Other observations

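The following 3 gene families were picked after their values were seen and are given as a description. Genes of cytoplasmic ribosomal proteins, which build the ribosome, were higher in 46 of 79 cases, each by less than 2-fold, with a median log2 fold change of 0.23. Their transcripts are short, with a median of 802 bases, and with the length trend removed 32 were higher and 2 lower (median 0.12). In the 12-library fit of edgeR 0 were called higher.

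Protocadherins, adhesion proteins best known from neurons, were lower in 24 of 45 cases, 13 of them at least 2-fold, with a median of -0.74 (-0.65 with the length trend removed). The 12-library fit called 3 of them lower. Many share exons within their clusters, so their counts are not independent. All 5 copies of the U3 small nucleolar RNA were at least 2-fold higher (median 1.73), also in the 12-library fit, and since their sequences are near-identical they may stand for 1 signal.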
